A study of Mus musculus with 18 samples.

Results

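The starts of long intergenic noncoding RNA (lincRNA) genes were read from whole-genome bisulfite sequencing of mouse embryonic stem cells. A start was the window of 1 kb either side of the first base of a gene that the GENCODE vM1 annotation of the NCBIM37 genome lists as lincRNA. Autosomal genes more than 5 kb from any protein-coding gene were kept, and the imprinted Meg3, Rian and Mirg were left out. This gave 215 of 1232 autosomal lincRNA genes, among 34653 autosomal gene starts in all. Of the other genes, 736 overlapped a protein-coding gene and 279 lay within 5 kb of one. The rule used position and annotation alone and no methylation value.

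The 18 libraries were 9 of control cells, whose genotype the labels give as wild type, and 9 of Dnmt1 KO cells, taken on days 1, 3, 6, 9 and 11. Each genotype had 2 replicates on a day, except on day 6, when it had 1 library. According to the methods, the Dnmt1 KO cells carried floxed Dnmt1 alleles on a C57BL/6 background, were cultured in serum with LIF, and lost the gene through Cre recombinase induced by tamoxifen. The labels name E14 as the strain of every library, which conflicts with that background. The origin of the control cells is therefore unclear. If they came from another line, a difference between lines cannot be told apart from the deletion. The sample titles and the methods do not state whether the control cells received tamoxifen. If they did not, an effect of that treatment cannot be told apart from the deletion either. Libraries held 7190722 to 11158414 CpG calls, and the 215 start windows together held 2150 to 4632 of them per library. Over the Dnmt1 segment on chromosome 9 from 20744920 to 20746027, control libraries had 2 to 18 calls and Dnmt1 KO libraries had 0, except replicate 2 of day 1 with 2.

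LincRNAs are spliced, polyadenylated transcripts without a long reading frame, and many are made at low levels and in few cell types. DNMT1 copies CpG methylation onto the new strand after replication, and DNMT3A and DNMT3B set new methylation. In mammals most CpGs outside gene starts are methylated, whereas CpG-rich starts are usually kept free of it, and CpG-poor starts vary with the use of the gene.

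The members differed first in CpG content. A CpG was called dense when 25 or more CpGs, itself included, lay within 250 bp either side, and a start was called CpG-dense when its window held at least 1. There were 84 CpG-dense and 131 CpG-poor members, so 39.1% were CpG-dense, against 58.7% of 21418 protein-coding starts. The median window held 37 CpGs, against 62 for protein-coding starts. The bases around 5 starts are shown, 100 to each side of the start and read along the gene, as examples of highly methylated and of CpG-rich starts. The first 2 had the highest pooled Dnmt1 KO levels of days 9 and 11 among members chosen for a control level of 60% or more, so their contrast in methylation with the others is partly set by that choice. The other 3 have the most CpGs in their windows. Capitals mark CpG sites.
Gm17388, chr4:135911589-135911788, plus strand: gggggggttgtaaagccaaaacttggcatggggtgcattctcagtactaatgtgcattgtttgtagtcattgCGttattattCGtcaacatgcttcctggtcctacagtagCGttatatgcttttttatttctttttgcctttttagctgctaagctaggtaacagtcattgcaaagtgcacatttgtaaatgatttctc
4930552P12Rik, chr19:55776595-55776794, minus strand: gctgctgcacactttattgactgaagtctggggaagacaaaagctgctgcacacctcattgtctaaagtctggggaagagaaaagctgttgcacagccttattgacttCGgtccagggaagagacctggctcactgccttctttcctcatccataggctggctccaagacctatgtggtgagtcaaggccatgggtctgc
Dleu2, chr14:62301063-62301262, minus strand: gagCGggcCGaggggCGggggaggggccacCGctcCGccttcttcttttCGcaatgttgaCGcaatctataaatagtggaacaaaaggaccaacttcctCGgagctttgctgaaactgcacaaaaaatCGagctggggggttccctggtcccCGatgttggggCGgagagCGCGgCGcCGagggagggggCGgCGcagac
Ttc28, chr5:111308722-111308921, plus strand: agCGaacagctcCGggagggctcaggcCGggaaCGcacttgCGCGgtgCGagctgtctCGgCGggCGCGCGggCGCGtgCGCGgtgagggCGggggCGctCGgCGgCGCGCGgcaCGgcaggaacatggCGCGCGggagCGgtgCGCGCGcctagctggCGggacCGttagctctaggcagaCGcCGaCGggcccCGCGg
2610206C17Rik, chr7:91838050-91838249, plus strand: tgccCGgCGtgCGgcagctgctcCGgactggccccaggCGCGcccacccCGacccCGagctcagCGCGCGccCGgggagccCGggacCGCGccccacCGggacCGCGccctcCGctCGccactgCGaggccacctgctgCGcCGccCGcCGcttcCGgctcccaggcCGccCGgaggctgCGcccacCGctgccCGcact

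These 200 bases held 3 and 1 CpGs in Gm17388 and 4930552P12Rik, and 17, 38 and 31 in Dleu2, Ttc28 and 2610206C17Rik. In control cells of days 9 and 11 the first 2 windows were 93.9% and 81.6% methylated, and the other 3 were 0.866% to 12.4% methylated.

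The median gene was 10395 bp long with 3 exons and lay 31774 bp from the nearest protein-coding gene. Names were matched to RefSeq, which lists 116 members as lncRNA, 8 as protein-coding, 6 as pseudogenes and 2 as transcribed pseudogenes. The remaining 83 had no match. The 8 listed as protein-coding were Fam150a (now Alkal1, a ligand of the ALK and LTK receptors), Tdrd5 (a tudor protein of male germ cells), Nlrc5 (an activator of MHC class I genes), Ttc28, Lactbl1, Gm2115, Gm11549 and Gm11818. In 21 members the window overlapped another gene's start window, and 3 members (Gm17667, Gm17580 and Gm17587) had no call in any library.

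The first comparison asked how far methylation at the starts fell after loss of Dnmt1. The share of methylated calls over all member starts was lower in Dnmt1 KO than in every control library of the same day, in 9 of 9 libraries. In control cells it was 31.8% and 30.9% at day 1, 28.7% and 29.3% at day 3, and 33.8% at day 6 (95% exact interval 32.2% to 35.3%). It was 29.5% and 28.3% at day 9, and 24.2% and 24.9% at day 11. The control level was highest in the single library of day 6 and lowest at day 11.

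In Dnmt1 KO cells the starts were at 28.3% and 27.4% at day 1, 11.3% and 10.5% at day 3, and 7.26% (6.48% to 8.10%) at day 6. They stayed at 7.70% and 9.26% at day 9 and at 7.42% and 9.14% at day 11. Most of the fall therefore lay between days 1 and 3, and the values of days 9 and 11 overlapped, with the single library of day 6 below all 4 of them. The intervals cover counting error only. The mean over days was 29.5% in control and 12.6% in Dnmt1 KO cells, a difference of -16.97 percentage points (exact permutation of genotype within day, two-sided, p = 0.000772, the smallest that the 2592 arrangements allow, adjusted p = 0.00121 over 11 tests). By day, the difference was smallest at day 1 (-3.55 points) and largest at day 6 (-26.5 points). The SD between Dnmt1 KO replicates was at most 1.22 points, at day 11.

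The rest of the same genes started higher and ended higher. Gene bodies outside the start windows, present for 210 members, were 76.1% ± 1.99 methylated in control cells at day 1 (SD, n = 2) and 69.0% ± 1.11 in Dnmt1 KO cells. At day 3 the bodies were at 74.8% ± 0.154 and 33.1% ± 0.791, and over days 9 and 11 at 72.7% ± 3.52 and 24.9% ± 0.547 (n = 4). The body difference over days was -39.7 points (exact permutation, adjusted p = 0.00121), and Dnmt1 KO was again below control in 9 of 9 libraries.

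In points, starts lost less than bodies. The gap of starts below bodies was -45.4 points in control and -22.7 in Dnmt1 KO cells (difference 22.8, exact permutation, adjusted p = 0.00121, 9 of 9 libraries), and with each member counted equally the difference was 14.1. Relative to its own level the start lost slightly more than the body. The log2 ratio of start to body level was -1.35 in control and -1.56 in Dnmt1 KO cells, a difference of -0.21 (exact permutation, p = 0.0108, adjusted p = 0.0108), with 7 of 9 Dnmt1 KO libraries below and 2 above the controls of their day. With a window of 500 bp either side this ratio difference was -0.26 and missed the threshold (exact permutation, adjusted p = 0.0517). Without the day 6 library of either genotype it was -0.13 (exact permutation, adjusted p = 0.0216).

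**Figure D1:**
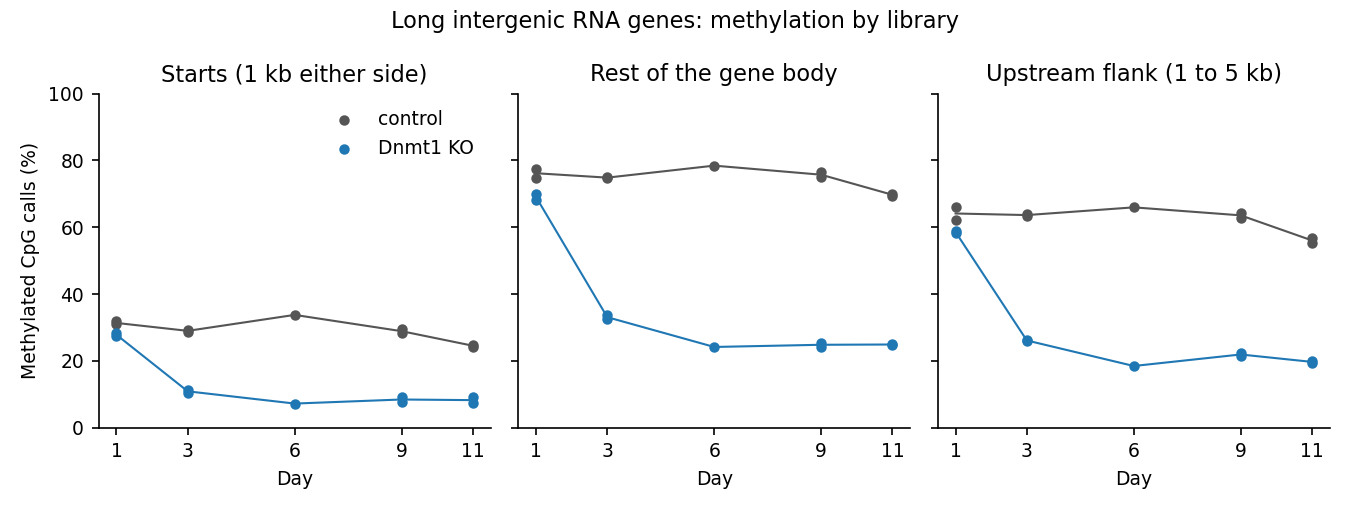
Methylated share of CpG calls (vertical axis, %) by day (horizontal axis) in the start windows, the rest of the gene bodies and the flanks from 1 to 5 kb upstream of the 215 lincRNA genes. Points are libraries and lines join the means of a day; starts fell from 27.8% to 10.9% between days 1 and 3 in Dnmt1 KO cells, and bodies from 69.0% to 33.1%.

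Exons and introns of the bodies were compared as well. Body exons of days 9 and 11 were at 60.7% ± 4.88 in control and 20.1% ± 1.27 in Dnmt1 KO cells, and introns at 74.2% ± 3.37 and 25.5% ± 0.573 (SD, n = 4). Exons were below introns in both genotypes, and the gap was 6.43 points narrower in Dnmt1 KO cells (exact permutation, adjusted p = 0.00121). A gap in points narrows when both levels fall by the same factor, so log2 ratios of the levels were added after seeing the data for this and the next comparisons. The log2 ratio of exons to introns changed the other way, by -0.063 (exact permutation, adjusted p = 0.0482 over 5 ratio tests), with 6 of 9 Dnmt1 KO libraries below and 2 above the controls of their day. Judged by unadjusted p, it missed the threshold without any 1 of 12 of the 18 libraries, and more fits could miss after adjustment. The change was smallest, at -0.044, without Dnmt1 KO day 11 replicate 1.

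The dip at the start was narrow. In control cells of days 9 and 11, the 500 bp before and after the start were 18.8% ± 2.02 and 19.3% ± 3.05 methylated (SD, n = 4). The next 500 bp outward were at 38.5% ± 4.96 upstream and 38.1% ± 3.08 downstream, and bins beyond 1.5 kb lay between 56.6% and 65.8%. Within 1 kb, upstream and downstream levels of control cells thus lay within the spread of the libraries. From 1 to 1.5 kb, control cells of these days were at 52.8% upstream and 51.4% downstream. Dnmt1 KO cells were there at 19.6% (libraries 18.1% to 20.4%) and 16.2% (14.1% to 17.6%), without overlap, and this difference between the sides was not tested. In Dnmt1 KO cells of these days the dip was at 6.53% ± 1.04 and 5.55% ± 1.40, the next bins at 12.7% ± 0.540 and 10.8% ± 1.43, and bins beyond 1.5 kb between 18.04% and 23.7%. CpGs were most frequent where methylation was lowest, with 28.0 and 29.9 CpGs per kb beside the start against 10.4 to 13.6 beyond 1.5 kb.

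The flank from 1 to 5 kb upstream was at 59.8% ± 4.40 in control and 20.8% ± 1.34 in Dnmt1 KO cells over days 9 and 11 (SD, n = 4). Starts stood below this flank by 33.1 points in control (mean difference over days -33.1) and by 16.4 in Dnmt1 KO cells (-16.4). The change of 16.7 points passed the test (exact permutation, adjusted p = 0.00212), with 8 of 9 Dnmt1 KO libraries above the controls of their day, and was 11.03 points with 2 kb start windows. The log2 ratio of starts to flanks changed the other way, by -0.17 (exact permutation, adjusted p = 0.0322), with 7 of 9 Dnmt1 KO libraries below and 1 above the controls of their day. Fits without 1 library were judged by unadjusted p alone, so more of them could miss the threshold after adjustment over the 5 ratio tests. Even so, the ratio change missed it without Dnmt1 KO day 11 replicate 1 (-0.14) and without either control of day 11 (-0.17 each). The change was smallest, at -0.12, without the day 6 library of either genotype.

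**Figure D2:**
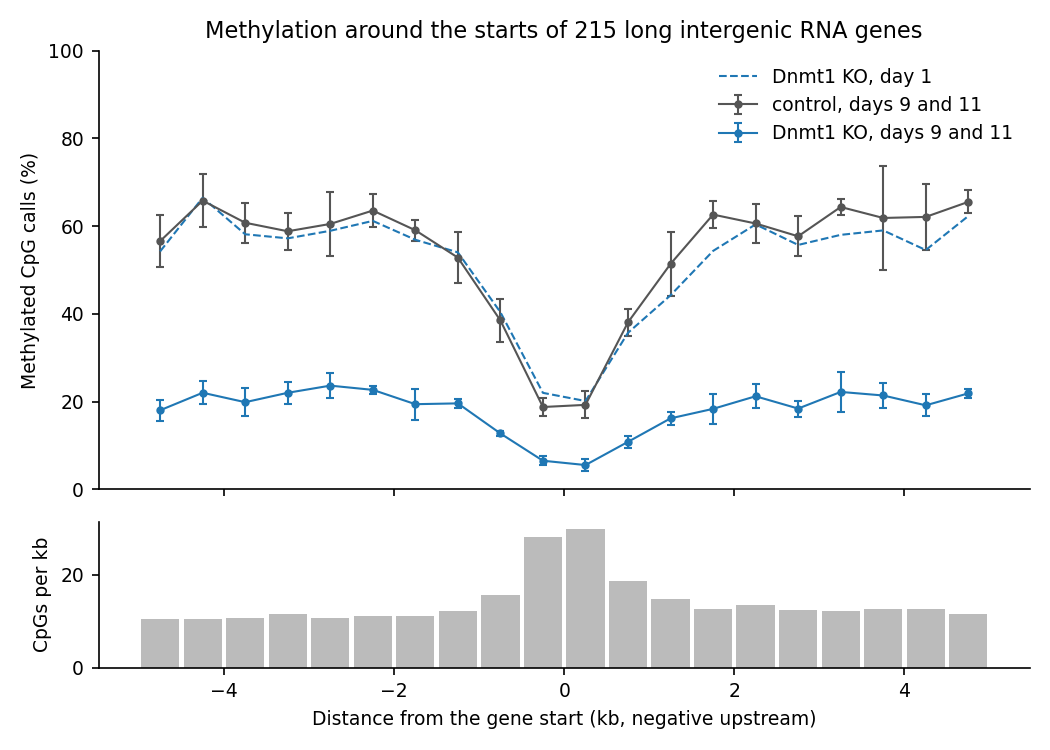
Methylated share of CpG calls (%) in 500 bp bins by distance from the gene start (kb) above, and CpGs per kb below. Points are means and bars SDs over the 4 libraries of days 9 and 11, and the dashed line is Dnmt1 KO at day 1; the dip at the start is present in both genotypes, at about the bins with 28.0 and 29.9 CpGs per kb.

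CpG-dense and CpG-poor members were then read apart. CpG-dense starts were at 19.1% ± 1.35 in control and 16.6% ± 1.04 in Dnmt1 KO cells at day 1 (SD, n = 2), and at 15.5% ± 2.00 and 5.99% ± 0.781 at day 3. Over days 9 and 11 they were at 14.8% ± 1.36 and 4.49% ± 0.868 (n = 4). The difference over days was -9.53 points (exact permutation, adjusted p = 0.00121, 9 of 9 libraries lower). It changed with the width read, at -4.77 points with 500 bp and -17.8 with 2 kb either side. The class was redrawn in each window, so the members differ as well as the bases read.

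CpG-poor starts held more methylation in control cells. They were at 48.1% ± 1.89 in control and 41.4% ± 1.37 in Dnmt1 KO cells at day 1, and at 45.9% ± 4.095 and 17.2% ± 0.268 at day 3. Over days 9 and 11 they were at 42.0% ± 4.23 and 13.8% ± 0.933 (n = 4). The difference over days was -25.9 points (exact permutation, adjusted p = 0.00121, 9 of 9 libraries lower).

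Protein-coding starts of the same CpG class were set beside them. A class does not fix the number of CpGs, which ran from 31 to 166 in the windows of CpG-dense members. LincRNA and protein-coding starts of a class were therefore not matched for it. The 12 protein-coding windows with the most calls held 52.4% of all calls in such windows, whereas no member window had over 831 calls, so levels of protein-coding starts are given without cytosines of over 20 calls in a library. On that basis CpG-dense protein-coding starts were at 9.47% ± 1.17 in control and 2.77% ± 0.313 in Dnmt1 KO cells over days 9 and 11 (SD, n = 4), below the CpG-dense lincRNA starts in each genotype. The lincRNA excess was 6.81 points in control and 3.04 in Dnmt1 KO cells as means over days. Its change of -3.77 passed the test (exact permutation, adjusted p = 0.00121, 9 of 9 libraries), and was -2.31 for 500 bp windows with the class redrawn in them. As a log2 ratio the lincRNA excess was 0.75 in control and 0.77 in Dnmt1 KO cells, a change of 0.025 that missed the threshold (exact permutation, adjusted p = 0.685), with 4 Dnmt1 KO libraries above and 3 below the controls of their day. A relative difference in loss between the 2 kinds of CpG-dense start was therefore not detected. CpG-poor starts had the opposite order. Protein-coding ones were at 66.4% ± 3.82 in control and 20.9% ± 0.494 in Dnmt1 KO cells, above the 42.0% and 13.8% of CpG-poor lincRNA starts.

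With all calls counted, the gap of CpG-poor lincRNA starts below CpG-poor protein-coding starts narrowed by 10.9 points in Dnmt1 KO cells (exact permutation, adjusted p = 0.00472, 7 of 9 libraries above the controls of their day and 1 below). Over all starts, whatever their CpG class, lincRNA minus protein-coding changed by 6.37 points (exact permutation, adjusted p = 0.0102). That last direction turned to -6.21 without cytosines of over 20 calls (exact permutation, adjusted p = 0.00106), so it rested on the few windows with very many calls. The log2 ratios moved down in both comparisons with all calls, by -0.46 for CpG-poor and by -0.53 for all starts (exact permutation, adjusted p = 0.00193 for each). Without cytosines of over 20 calls they changed by -0.11 and -0.12 and missed the threshold (exact permutation, adjusted p = 0.324 and p = 0.102). Both were smallest without the day 6 library of either genotype, at -0.0357 and -0.0799.

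**Figure D3:**
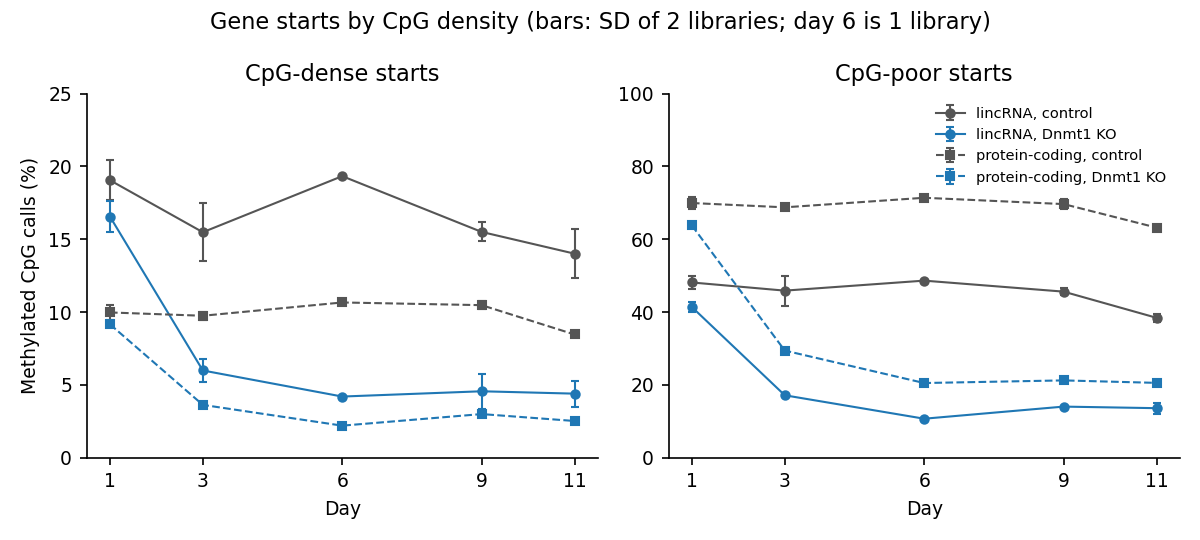
Methylated share of CpG calls (%) by day in CpG-dense (left, axis to 25%) and CpG-poor (right, axis to 100%) starts of lincRNA genes (circles, solid) and protein-coding genes (squares, dashed), without cytosines of over 20 calls. Bars are SDs of 2 libraries and day 6 is 1 library; lincRNA starts lie above protein-coding ones among CpG-dense starts and below them among CpG-poor starts in both genotypes.

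Members varied widely within each class. Among members with at least 40 calls over the 9 control libraries, CpG-dense ones had a median level of 15.0% (lowest 0.518%, highest 55.0%), and CpG-poor ones 52.7% (2.12% to 94.2%). The same members were sorted by their pooled control level, which used no Dnmt1 KO value. There were 54 at 60% or more, none of them CpG-dense, 75 between 20% and 60%, 30 of them CpG-dense, and 71 below 20%, 48 of them CpG-dense. The other 15 had fewer calls.

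The 54 highly methylated starts were at 76.1% ± 4.38 in control and 24.5% ± 0.895 in Dnmt1 KO cells over days 9 and 11 (SD, n = 4). The 75 intermediate starts were at 32.4% ± 2.26 and 8.72% ± 1.55, and the 71 low starts at 9.22% ± 1.47 and 3.22% ± 0.441. The Dnmt1 KO level was 32.2%, 26.9% and 35.0% of the control level in the high, intermediate and low starts. Whether these shares differ was not tested, and the sorting used the control libraries of these days too. At day 3 the Dnmt1 KO levels were already 33.3%, 11.06% and 3.92%, and at day 1 the high and intermediate starts were at 69.4% and 31.0%. At day 1 Dnmt1 KO minus control was -7.71 points in the high, -9.43 in the intermediate and 0.370 in the low starts. The sorting used the control libraries of day 1 too. It moves the control up in the high and down in the low starts, so these differences are partly set by it.

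Start and body were also compared inside each gene. Of 108 members with at least 40 calls in each, the start was below the body in 101 in control and in 104 in Dnmt1 KO cells of days 9 and 11. The median gap was -51.9 points in control and -14.1 in Dnmt1 KO cells. All 66 CpG-dense ones among them were below their body in control, and 64 in Dnmt1 KO cells.

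Single starts were tested with a quasi-binomial model over the 18928 autosomal gene starts with at least 10 calls in each genotype and day. Of the 215 members, 136 had this depth, 67 CpG-dense and 69 CpG-poor, and a start was called when its difference reached 10 points and its p stayed under 0.05 after Benjamini-Hochberg adjustment. At day 1 the count of members called was 0. Of the 136, 9 had an unadjusted p under 0.05, against 1523 of the 18928 tested starts. Limma and edgeR also called 0, with 14 and 2 members at that unadjusted level, for which no count over all starts is given. Of all tested starts, 0.0634% were called at day 1. The median member difference was -3.25 points.

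At day 3, 23 members were called lower (4 CpG-dense and 19 CpG-poor), or 16.9% of those tested, against 15.5% of all tested starts. The share of members was thus near that of all genes. By days 9 and 11, 43 were called lower (9 CpG-dense and 34 CpG-poor), or 31.6%, against 36.4% of all tested starts. No member was called higher at day 3 or over days 9 and 11, as were 0% and 0.00528% of all tested starts. At both times 15 members were called lower, or 11.03% of those tested, against 13.3% of all tested starts. The median member difference was -14.4 points at day 3 and -13.0 over days 9 and 11, against -9.47 and -11.1 for all tested starts. The counts rested on depth and on the test, for members as for all starts. When any 1 library was left out, 4 to 17 of 70 to 122 tested members were called at day 3 and 19 to 40 over days 9 and 11. In these fits the shares were 3.67% to 15.1% of members against 7.12% to 12.2% of all starts at day 3, and 17.9% to 32.8% against 25.1% to 31.8% over days 9 and 11. The member share was the higher of the pair in 9 of 16 such fits at day 3 and in 7 of 16 over days 9 and 11. EdgeR called 0 members at day 3 (25 at an unadjusted p under 0.05), against 0.396% of all starts, and 41 over days 9 and 11 (30.1% against 32.0%).

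Between day 3 and days 9 and 11 of Dnmt1 KO cells the count of members called was 0. At an unadjusted p under 0.05 there were 3 of 136 members, against 948 of the 18928 tested starts. Limma and edgeR called 0 too, with 3 and 10 at that level, and 0.0528% of all tested starts were called. The median member difference was -0.462 points.

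**Figure D4:**
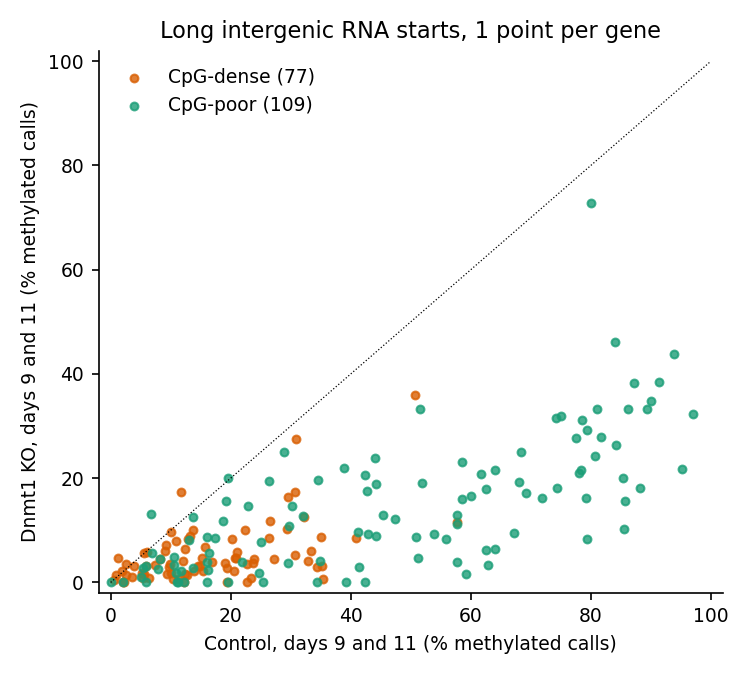
Methylated share of calls in Dnmt1 KO (vertical, %) against control (horizontal, %) over days 9 and 11 for the 186 lincRNA starts with at least 20 calls in each genotype, by CpG class. The dotted line marks equal levels; 176 starts lie below it, 1 on it and 9 above it, and those 9 all have control levels of 19.6% or less.

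Characterised lincRNA genes were named whatever their values. Miat, on chromosome 5 from 112642248 to 112657968 on the minus strand and known as a nuclear RNA of neurons, had a CpG-dense start with 88 CpGs. It was 9.23% methylated in control (95% exact interval 4.86% to 15.6%, 130 calls) and 7.14% (3.13% to 13.6%, 112 calls) in Dnmt1 KO cells over days 9 and 11. These intervals overlap, and no difference was detectable at this depth (adjusted p = 0.59 by the quasi-binomial test). The body of Miat went from 41.0% to 18.4%.

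Dleu2, the host gene of the miR-15a and miR-16-1 cluster, had the most CpGs of any member, 166 in its window on chromosome 14. Of 231 control calls over days 9 and 11 0.866% were methylated, and of 140 Dnmt1 KO calls 1.43%, both resting on 2 methylated calls. Its start was nearly free of methylation in both genotypes, and its body went from 52.5% to 15.5%.

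Pvt1, which lies beside Myc and is often amplified with it, spans chromosome 15 from 61869542 to 62209651 on the plus strand. Its start was at 40.7% (27 calls) and 18.5% (27 calls) in the control libraries of day 3 and at 0% (31 calls, which allow up to 9.68%) and 3.33% (30 calls) in the Dnmt1 KO libraries. Pooled over replicates, the control level was 29.6% at day 3, against 16.2% at day 1. The groups of day 3 did not overlap. The start was called lower at day 3 (difference -27.99 points, SE 8.19, adjusted p = 0.0356 by the quasi-binomial test), although the call held in only 7 of 23 alternatives. Over days 9 and 11 it was at 14.5% and 3.17% and was not called (adjusted p = 0.0846), and the fitted difference ranged from -16.3 to -5.43 points over the alternatives. Both levels rested on single libraries. Without control day 9 replicate 2 the control level was 9.43% of 106 calls, and without Dnmt1 KO day 11 replicate 1 the Dnmt1 KO level was 0 of 47 calls, which allow up to 6.38%.

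Rmst, which takes part in neuronal differentiation with SOX2, had a CpG-poor start with 18 CpGs on chromosome 10. It was 97.1% methylated in control (84.7% to 99.9%, 34 calls) and 32.3% in Dnmt1 KO cells (16.7% to 51.4%, 31 calls) over days 9 and 11. These intervals do not overlap, and the window had too few calls at some time points to enter the test. Its body went from 81.7% to 28.6%.

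The 8 members at 60% or more in control with at least 40 calls in each genotype over days 9 and 11 had Dnmt1 KO levels from 9.52% to 43.8%, with a median of 22.9%. Under the same rule the median was 27.6% for 3172 autosomal starts, of which 134 were over 50%, and 26.1% for 1383 protein-coding starts. None of the 8 members was over 50%.

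Gm17388, a gene on chromosome 4 from 135911689 to 135913957, had the highest Dnmt1 KO level of the 8. Its control libraries read 80.0% to 100% methylated at 5 to 31 calls each. In Dnmt1 KO cells it was at 81.2% (16 calls) and 75% (8 calls) at day 1, and at 80.0% (5 calls) and 46.2% (13 calls) at day 3. It was at 50% (6 calls) at day 6, at 0 of 2 calls and 37.5% (16 calls) at day 9, and 66.7% (21 calls) and 32.0% (25 calls) at day 11. All Dnmt1 KO libraries of days 9 and 11 were below the control libraries of those days. Pooled over these days it went from 93.9% (83.1% to 98.7%) to 43.8% (31.4% to 56.7%), a difference of -51.3 points in the model (SE 11.04, adjusted p = 0.00282 by the quasi-binomial test).

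4930552P12Rik, with 1 CpG in the printed bases and 39 in its window, went from 81.6% (71.9% to 89.1%) to 27.9% (17.7% to 40.1%) over days 9 and 11. Its Dnmt1 KO libraries read 15.4% (13 calls) and 9.09% (11 calls) at day 9 and 45.8% (24 calls) and 25% (20 calls) at day 11, so replicate 1 of day 11 set the level, which was 18.2% of 44 calls without it. It had too few calls at day 3 to be tested. 5330411J11Rik went from 77.6% to 27.6% in pooled calls. Its fitted difference, which weights days 9 and 11 equally, was -43.1 points (SE 8.75, adjusted p = 0.00192 by the quasi-binomial test). 5330411J11Rik had already been called lower at day 3, a call kept in 15 of 17 alternatives. Its 2 control libraries of day 11 read 50% (6 calls) and 55.6% (9 calls), lower than the 87.0% and 90.9% of day 9.

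G730013B05Rik, on chromosome 16, had the largest called difference among the members over days 9 and 11. It went from 85.5% to 10.3% in pooled calls. Its fitted difference was -77.98 points (SE 5.20, adjusted p = 2.59e-06 by the quasi-binomial test). Its 4 Dnmt1 KO libraries of those days read 10%, 0% (14 calls, which allow up to 21.4%), 15.4% and 10.7%, and its control libraries 95.2%, 100%, 80.0% and 75%. Gm17605 and A930038B10Rik were called lower as well, with fitted differences of -59.99 and -57.5 points. The Dnmt1 KO level of Gm17605 was 24.2%, or 15.9% of 44 calls without day 11 replicate 2. Gm16834 went from 78.4% to 21.6% and Gm16767 from 67.2% to 9.52%, and neither had the depth to be tested. In Gm16767 the libraries disagreed, since the methylated Dnmt1 KO calls of days 9 and 11 all came from replicate 2 of day 11 (4 of 16), the other libraries had 0 of 9, 0 of 17 and no call, the Dnmt1 KO library of day 6 read 47.6% (21 calls), and the lowest control library of those days read 35.7%.

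**Figure D5:**
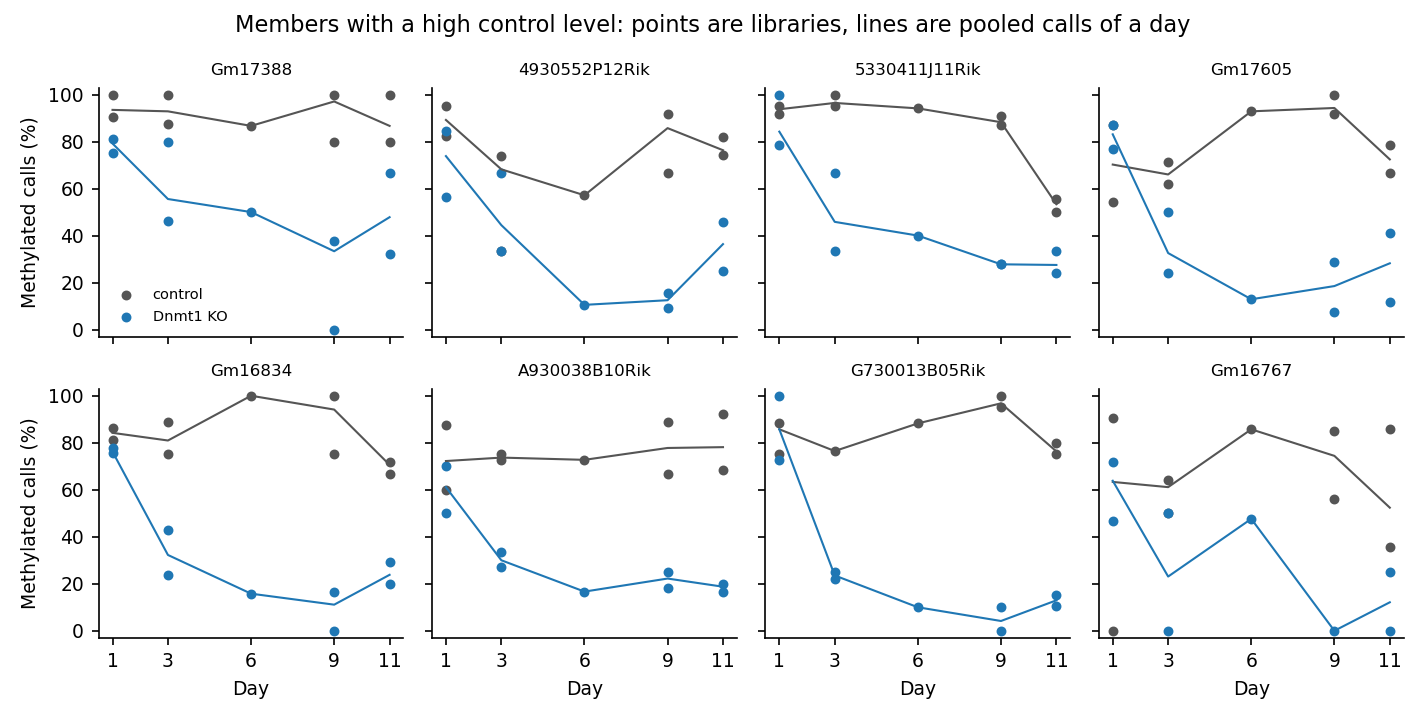
Methylated share of calls (%) by day in the start windows of the 8 members with 60% or more in control and at least 40 calls per genotype over days 9 and 11. Points are libraries, lines are the pooled calls of a day, grey is control and blue is Dnmt1 KO; Gm17388 stands highest in Dnmt1 KO cells at 43.8% over days 9 and 11 and Gm16767 lowest at 9.52%.

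Among the members with the most CpGs, levels were low in both genotypes. For days 9 and 11, 2610206C17Rik was at 3.48% in control and 1.08% in Dnmt1 KO cells, Gm3834 at 8.26% and 4.49%, and Gpr137b-ps at 2.60% and 3.61%. These levels rest on few methylated calls: without day 11 replicate 1 the Dnmt1 KO level was 0 of 135 calls (which allow up to 2.22%) in 2610206C17Rik and 7.41% of 54 in Gm3834, which was 2.53% of 79 without day 9 replicate 2. In Gpr137b-ps it was 1.64% of 61 without day 11 replicate 2, and the control level was 4.49% of 89 without day 9 replicate 2 and 0 of 112 (up to 2.68%) without day 11 replicate 2. For Gm3834 these are pooled calls, and the fitted difference, which weights the 2 days equally, had the opposite sign (2.62 points, adjusted p = 0.828 by the quasi-binomial test). Ttc28, which has tetratricopeptide repeats and is protein-coding in RefSeq, was at 12.4% and 6.47%. None of these 4 was called, and 2810011L19Rik, at 14.8% and 3.15%, was not tested. A call needed a difference of 10 points, which a fall from the control levels of 2610206C17Rik, Gm3834 and Gpr137b-ps could not reach. The bodies of all these members were methylated in control cells, from 69.9% in 2610206C17Rik to 85.0% in Gpr137b-ps.

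Some further members are named here after their values were seen. Of the 8 members that RefSeq lists as protein-coding, 6 were tested over days 9 and 11, of which 3 were called lower and 3 (Tdrd5, Ttc28 and Gm11818) were not, against 36.4% called of all tested starts, a count too small to compare with that share. The called ones were Lactbl1, Gm11549 and Gm2115, from 62.8% to 3.33%, from 35.3% to 0.730% and from 32.8% to 4.07%. The start of Tdrd5 was at 18.98% in control and 3.70% in Dnmt1 KO cells and was not called (adjusted p = 0.157 by the quasi-binomial test). Snhg5, a host gene of small nucleolar RNAs, was at 0.505% of 198 calls in control and 0.529% of 189 calls in Dnmt1 KO cells. Gm6846 went from 42.4% of 92 control calls to 0 of 49 Dnmt1 KO calls, for which the exact interval reaches 7.25%. Gm16619 had the highest Dnmt1 KO level among members with 20 calls, 72.7% of 22 calls (49.8% to 89.3%) against 80.0% of 75 control calls, and was not called (adjusted p = 0.672 by the quasi-binomial test).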

How the data were processed

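The authors trimmed the reads, aligned them with Bismark to NCBIM37, removed duplicates and extracted CpG calls. The submitters' processing notes name Bismark 0.12.3, whereas the paper's methods name a later version, so the version used is unclear. The deposited tables gave counts of methylated and unmethylated calls and a deposited percent per cytosine, which equals the share of the counts. Only the counts were used. A minimum coverage applied before deposition is not given in the sources used here. Calls at CpGs of NCBIM37 were kept, both strands were added, and calls were summed over windows without normalization. Samples were grouped by their titles. Levels were compared by exact permutation of genotype within day (Python 3.11.15, SciPy 1.17.1). Single starts were tested with a quasi-binomial model on 16 libraries, without day 6, its dispersion moderated with limma 3.58.1 in R 4.3.3. Tests were checked on simulated data. Alternatives were limma on levels, edgeR 4.0.16 on counts, other windows, depth minimums, distances, weights and filters, log2 ratios of levels, a replicate block, and leaving out each library.

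Named were characterised lncRNA genes of a list, the 8 highest and 4 lowest Dnmt1 KO levels among members at 60% or more in control with 40 calls per genotype over days 9 and 11 (8 members met this), and the 6 members with the most CpGs. The members and lists were chosen with earlier results of these data known. RefSeq matches used symbols and synonyms only. Printed bases were read from NCBIM37.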

Additional observations from a re-analysis of the deposited data

How the results depend on the processing

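In percentage points, the differences over all days kept their direction and side of the threshold under every alternative run, with 4 exceptions. The log2 ratio of start to body missed the threshold with a 500 bp window (-0.26). LincRNA minus protein-coding starts missed it with a 2 kb window (2.19) and reversed with each member counted equally (-3.50) and without cytosines of over 20 calls (-6.21). Leaving out each library moved the start difference between -17.1 and -14.6 points and the log2 ratio difference between -0.24 and -0.13, the smallest without day 6. Over all alternatives run, the start difference ranged more widely, from -23.6 to -12.7 points. Sizes moved more than 1.5 times with window width for CpG-dense starts (-4.77 to -17.8 points), whose class was redrawn in each window. A restriction to the 199 members that RefSeq does not list as protein-coding or pseudogene, chosen after seeing the data, gave -16.9. Log2 ratios in place of differences in points, also chosen after seeing the data, turned the direction of starts against flanks (-0.17) and exons against introns (-0.063). They did so too for lincRNA against protein-coding starts, among CpG-poor (-0.46) and all starts (-0.53). Among CpG-dense starts the ratio change was 0.025, not past the threshold. Its sign was not stable, at -0.014 to 0.065 on leaving out each library. Without cytosines of over 20 calls the ratio changes against protein-coding starts were 0.025 (CpG-dense), -0.11 (CpG-poor) and -0.12 (all starts), none past the threshold. A gap in points and a ratio measure different quantities when both levels fall.

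Counts of called members depended on depth. With a minimum of 20 calls (55 members tested) there were 2 at day 3 (3.64%, against 4.03% of all starts in that fit) and 14 over days 9 and 11 (25.5% against 14.8%), and with 5 calls (183 tested) 43 (23.5% against 23.0%) and 79 (43.2% against 48.6%). A 500 bp window (45 tested) gave 0 at day 3 (against 1.57%), with 2 at an unadjusted p under 0.05, and 2 over days 9 and 11 (4.44% against 5.59%). At day 3 limma gave 15 (11.03% against 9.78%) and edgeR 0 (against 0.396%). The member share thus stood below that of all starts over days 9 and 11 with 10 calls and above it with 20. Without one library the counts ranged from 4 to 17 at day 3 and from 19 to 40 over days 9 and 11, on 70 to 122 tested members. At day 3 the count was 4 and 5 without control day 3 replicates 2 and 1, and 7 and 12 without Dnmt1 KO day 3 replicates 2 and 1. It was 6 and 7 without Dnmt1 KO day 9 replicates 1 and 2, 8 and 9 without Dnmt1 KO day 11 replicates 1 and 2, 11 and 14 without replicate 1 of control days 11 and 9, and 15 without Dnmt1 KO day 1 replicate 2 or either control of day 1. For days 9 and 11 it was 19 and 28 without Dnmt1 KO day 9 replicates 1 and 2, 25 and 19 without control day 11 replicates 1 and 2, 26 on leaving out replicate 2 of Dnmt1 KO day 3, and 24 on leaving out replicate 2 of either Dnmt1 KO day 11 or control day 9. Fewer members reached the depth minimum in each of these fits.

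Deviations of same-numbered libraries correlated at -0.0256 to 0.0249 across windows on the 4 days with 2 replicates. Counting error in windows of few calls lowers such a correlation, and a shift shared by all windows does not enter it. Whether same-numbered libraries were paired is therefore not settled. With the replicate number as a block, limma called 6 at day 3 (4.41% against 5.28%) and 25 over days 9 and 11 (18.4% against 23.7%), and no difference over all days changed its call. For named members, 473 of 500 values under alternatives kept their call, 22 lost it, 5 gained it and 0 reversed. The kept values include starts not called in the main fit that stayed uncalled, so this count does not measure how stable the calls were. All lost calls were of day 3, where Pvt1 kept its call in 7 of 23 alternatives, G730013B05Rik in 14 of 18 and 5330411J11Rik in 15 of 17. The named members called over days 9 and 11 kept that call in every alternative that tested them.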
